A study of Drosophila melanogaster with 8 samples.

Results

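Glutathione S-transferases (GSTs) were examined as a family of 33 genes, among 14622 gene identifiers in the expression table of fly heads. A row was taken when its FlyBase identifier maps to a symbol made of Gst, a class letter (D, E, O, S or T) and a number. This gave 11 delta (D), 14 epsilon (E), 3 omega (O), 1 sigma (S) and 4 theta (T) genes. The rule uses the symbols alone, although the family was picked for study with earlier results of these data known. The zeta genes GstZ1 and GstZ2 were left out by the rule and are described with the related genes.

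GSTs join the tripeptide glutathione to electrophilic compounds, which makes these more soluble and lets transporters carry them out of the cell. Some members also bind ligands without catalysis, reduce peroxides or isomerize substrates. In insects the delta and epsilon classes have expanded by gene duplication and are known for insecticide resistance and for the response to oxidative stress, where the transcription factor encoded by cnc (the fly counterpart of Nrf2) drives several of them. The omega, sigma, theta and zeta classes are shared with vertebrates.

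RNA was sequenced from heads of males that were 3 days old and kept at 18 °C, with 4 libraries per group. The mutant group (EA) has the genotype y, sc, AdarE374A, in which the editing enzyme ADAR is present and catalytically inactive. The wild type group (WT) is white Canton-S. Per the study's methods, EA was made by CRISPR on a y sc background and backcrossed to white Canton-S for 7 generations, and sequence carried over with that background cannot be told apart from the loss of editing. Nothing in the sources says that libraries came from separate crosses or collections, so the p-values measure the spread between these libraries.

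The libraries held 9930607 to 24342035 reads assigned to genes. The labels could be examined through w, the gene mutated in the white strain, which had a normalized read count of 134 to 189 in EA and no more than 3 reads in any WT library. The groups thus differed in w as well as in editing. In any gene, including those of the eye, an effect of w cannot be told apart from the loss of editing. Adar, which carries a point mutation in EA, had 3534 to 6850 in EA and 3523 to 4538 in WT. Defining markers of head tissues had reads, with 11 of 12 photoreceptor, 6 of 7 neuron, 5 of 5 glia, 7 of 8 fat body and 7 of 7 antenna genes in the table. Midgut genes, which a head should lack, were at a summed normalized count of 213 to 1655 in EA and 146 to 208 in WT (8 of 13 genes in the table), mostly from Amy-d.

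The first question was which GSTs the head expresses. Levels were compared between genes as normalized read count per kb of exon, on exon lengths from an annotation newer than the one the reads were counted on. GstD1 and GstE12 led the family and together made up 33.2% of its summed level per kb. GstD1 (FBgn0001149), an enzyme known for degrading DDT and a common readout of cnc activity, had 1676 per kb in EA and 1337 in WT. GstE12 (FBgn0027590) had 1518 and 1410 per kb. The next were GstE3 and GstO3, at a mean over the 8 libraries of 671 and 616 per kb, and then GstE6 at 592. These 5 genes held 54.2% of the summed level. By class, epsilon genes held 56.7% and delta genes 22.1%, followed by omega (10.3%), theta (8.91%) and sigma (1.98%). Per gene, the sigma member GstS1, known for conjugating lipid peroxidation products and for its abundance in flight muscle, stood at 177 per kb.

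**Figure D1:**
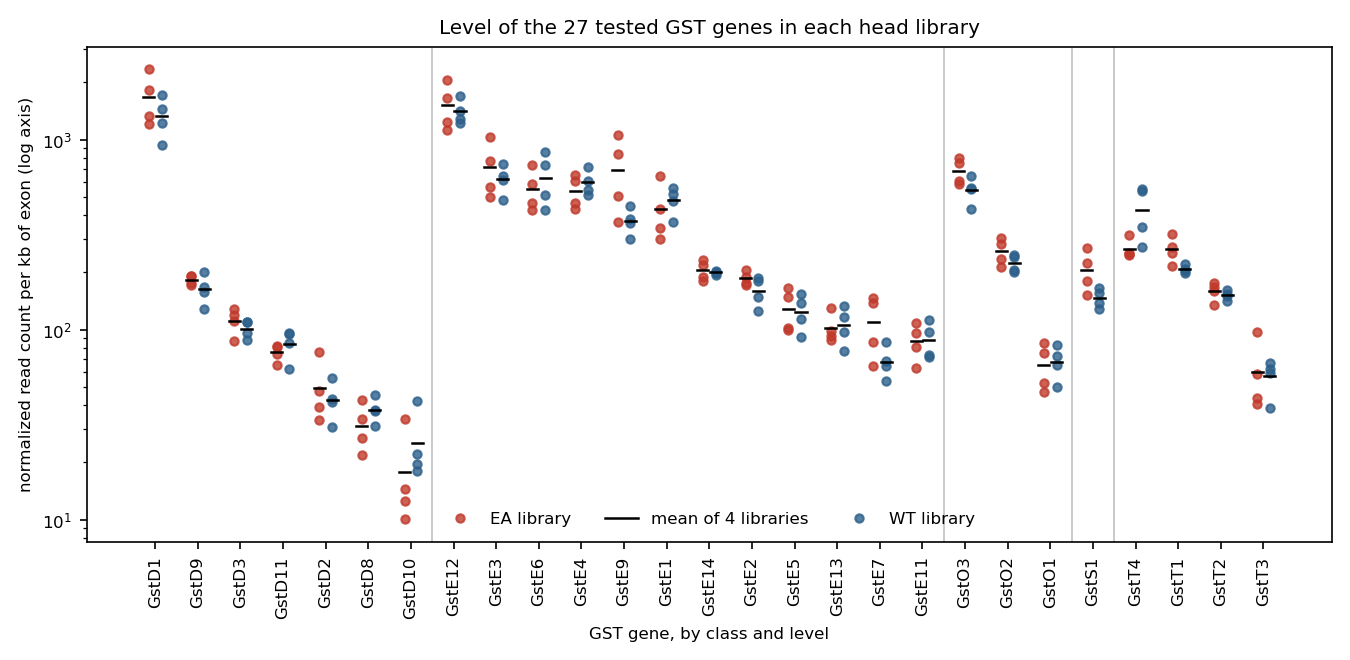
Normalized read count per kb of exon (log axis) of the 27 tested GST genes, ordered by class and level, with 1 point per library (red EA, blue WT) and a bar for the mean of 4 libraries. GstD1 and GstE12 lie highest (1676 and 1518 per kb in EA), GstD10 lies lowest, and the red and blue points of each gene overlap.

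At the other end, 6 genes had a mean normalized count under 10 and were not tested. They were GstD4, GstD5, GstD6, GstD7, GstE8 and GstE10. GstE8 had 4 to 18 reads per library. GstE10 and GstD5 had 0 to 5 reads, GstD6 had 1 to 4, GstD4 had 0 to 3 and GstD7 had 0 to 2. At so few reads only a large difference between EA and WT could be detected in these genes, and no fold change is given for them. In the alternative fit without the filter, 0 of the 33 GSTs were differentially expressed. GstD4 to GstD7 are neighbours in the delta cluster, between GstD3 and GstD8, which had means of 83.3 and 25.3 in EA.

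The second question was whether GST levels differ between EA, where ADAR cannot edit, and WT. Differential expression at an adjusted p under 0.05 was found in 0 of the 27 tested members (limma on the log2 scale with Benjamini-Hochberg adjustment, as in the tests below), where 1.21% of all 10347 tested genes were. The smallest adjusted p among GSTs was 0.251, for GstT1. At an unadjusted p under 0.05 there were 6 GSTs (22.2%), 5 higher and 1 lower in EA, against 12.7% of all tested genes. The count of differentially expressed GSTs was also 0 with edgeR, DESeq2 and limma-voom, where 1.22%, 5.14% and 0.889% of all tested genes were called. At an unadjusted p under 0.05 these tests gave 6, 6 and 5 GSTs, against 13.6%, 13.9% and 12.3% of all tested genes. EA and WT values were fully separate in 0 GSTs, whereas they were separate in 7.99% of all tested genes. The count of 6 at an unadjusted p under 0.05 changed when single libraries were left out. It was 2 without WT replicate 1 or WT replicate 3, 3 without EA replicate 4 or WT replicate 2, and between 4 and 7 without any other library. These fits hold fewer libraries, and the share of all tested genes in them is not given here. Whether the change in count is particular to GSTs was not tested.

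In direction, 17 of the 27 genes were higher in EA and 10 lower. The median log2 fold change was 0.07, beside -0.0029 over all tested genes. The median was -0.03 without EA replicate 3 and 0.22 without WT replicates 2 and 4. Fold changes ran from -0.62 for GstT4 to 0.78 for GstE9, and 15 of the 27 were smaller than 0.2 in either direction. The 95% intervals of 23 genes lay within a 2-fold change in both directions, and those of 12 lay within a 1.5-fold change. The 4 genes whose intervals reached past 2-fold were GstD10 (-1.50 to 0.37), GstT4 (-1.10 to -0.13), GstE7 (0.0045 to 1.22) and GstE9 (0.12 to 1.45). For these 4 members a change of that size lies within the error. The median standard error was 0.21 for GSTs and 0.14 over all tested genes.

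**Figure D2:**
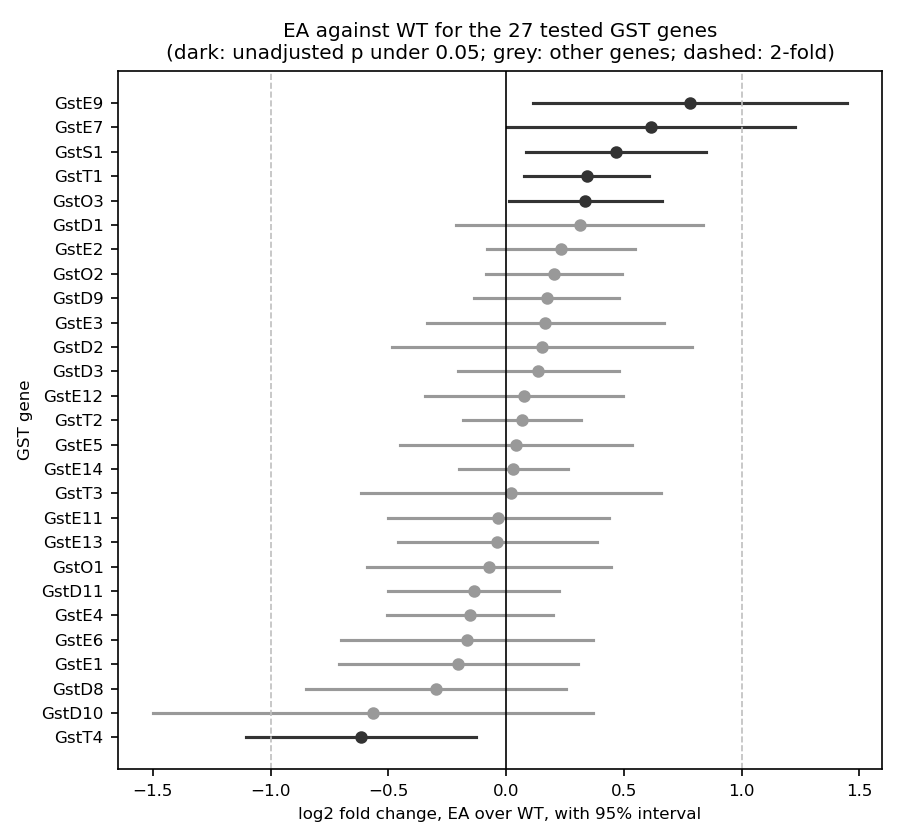
Log2 fold change of EA over WT with its 95% interval (limma, 4 libraries per group) for the 27 tested GST genes, ordered by size. The 6 dark genes had an unadjusted p under 0.05, and the intervals of 23 genes lie between the dashed lines at a 2-fold change.

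The 5 genes with the smallest p-values on the higher side came from the epsilon, sigma, theta and omega classes. GstE9 (FBgn0063491) had normalized counts of 398, 290, 835 and 664 in the EA libraries (replicates 1 to 4, the order used throughout) and 287, 302, 237 and 354 in the WT libraries. EA replicates 1, 3 and 4 lay above the highest WT library, and EA replicate 2 lay within the WT range. Its log2 fold change was 0.78 ± 0.30 (SE, n = 4; limma adjusted p = 0.304), and the adjusted p was 0.208 with edgeR and 0.0518 with DESeq2. When single libraries were left out the fold change ran from 0.54 (without EA replicate 3) to 1.05 (without EA replicate 2). It shares 40 bases of exon with imd on the opposite strand, and GstE12 shares 33 with CG3894.

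GstE7 (FBgn0063493), next but one to GstE9 in the epsilon cluster, had 49.3, 65.9, 106 and 112 in EA and 49.0, 52.1, 41.0 and 65.7 in WT. EA replicate 1 sat inside the WT range and the others above it, EA replicate 2 by a small margin. On the log2 scale the difference was 0.61 ± 0.27 (SE, n = 4; limma adjusted p = 0.391).

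GstS1 (FBgn0010226) had 512, 347, 615 and 410 in EA and 314, 376, 292 and 356 in WT. Again EA replicate 2 was the library that overlapped with WT. GstS1 differed by 0.47 ± 0.17 on the log2 scale (SE, n = 4; limma adjusted p = 0.285), and leaving out EA replicate 3 gave 0.33, EA replicate 2 0.60.

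GstT1 (FBgn0050000) had 273, 216, 316 and 254 in EA and 202, 221, 207 and 197 in WT, so that the groups overlapped by EA replicate 2 and WT replicate 2. The WT libraries were close together, with an SD of 10.2 against 41.6 in EA. The log2 fold change was 0.34 ± 0.12 (SE, n = 4; limma adjusted p = 0.251). The adjacent gene GstT2 had 119 to 156 in EA and 126 to 144 in WT, and differed by 0.07 ± 0.11 on the log2 scale (limma adjusted p = 0.878). Of the GstT2 exon length, 25.1% overlaps CG12926 on the opposite strand. The strand setting of the counting was not given in the sources used here, so reads in the shared stretch cannot be told apart from those of CG12926.

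GstO3 (FBgn0035904) had 517, 534, 706 and 664 in EA and 492, 483, 379 and 566 in WT. WT replicate 4 lay above EA replicates 1 and 2, and the other WT libraries lay below all EA libraries. The log2 fold change was 0.34 ± 0.14 (SE, n = 4; limma adjusted p = 0.377).

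The 1 gene on the lower side was GstT4 (FBgn0030484), which lies on the X chromosome. It had 301, 307, 386 and 310 in EA and 331, 654, 425 and 670 in WT. WT replicates 2 and 4 were far above the other libraries, and WT replicate 1 was lower than EA replicate 3. The log2 fold change was -0.62 ± 0.22 (SE, n = 4; limma adjusted p = 0.258, and 0.0552 with DESeq2). Without WT replicates 2 and 4 it was -0.21. GstT3, the other theta gene on X, had 55.4 to 133 in EA and 52.9 to 91.6 in WT, and differed by 0.02 ± 0.28 on the log2 scale (limma adjusted p = 0.990).

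**Figure D3:**
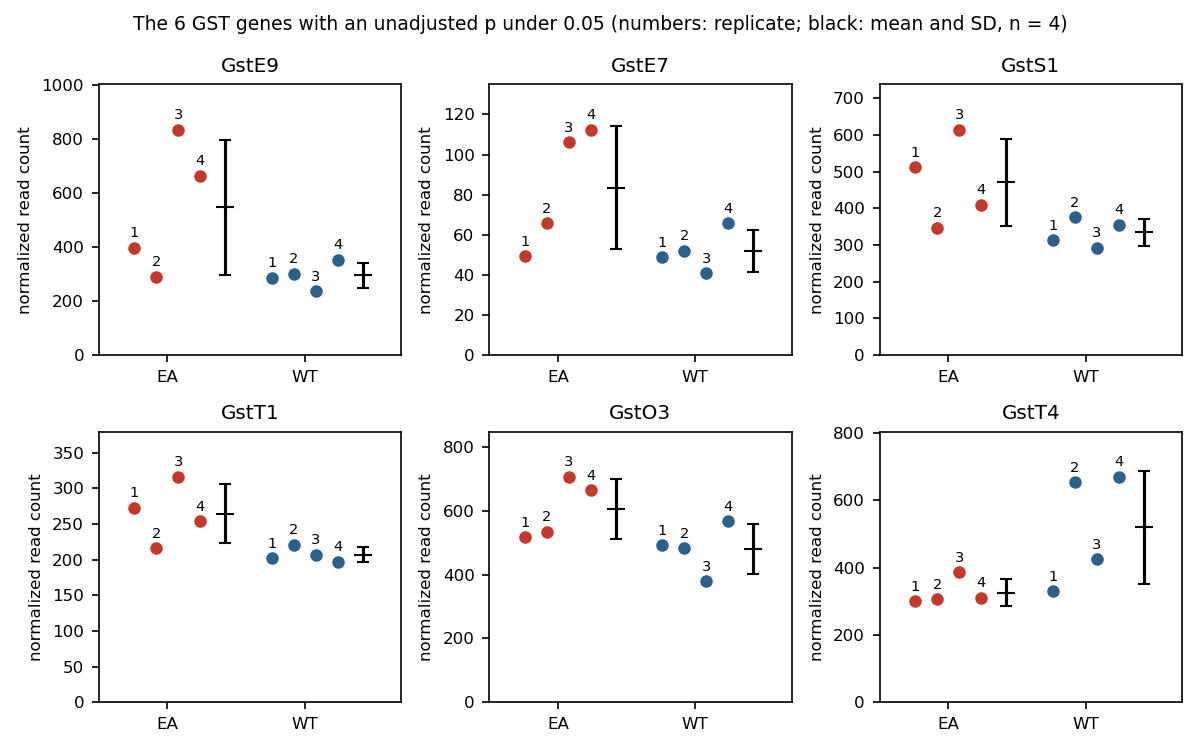
Normalized read count in each library of the 6 GST genes with an unadjusted p under 0.05 (numbers give the replicate, black marks the mean and SD of 4 libraries). EA replicates 3 and 4 of GstE9 (835 and 664) and WT replicates 2 and 4 of GstT4 (654 and 670) lie apart from the other libraries, and in each panel the groups overlap.

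The values of the 2 most abundant members overlapped between groups. GstD1 had 1125, 1021, 1974 and 1533 in EA and 1037, 1228, 791 and 1452 in WT. EA replicates 3 and 4 were above every WT library, while EA replicates 1 and 2 lay within the WT range. Its log2 fold change was 0.31 ± 0.23 (SE, n = 4; limma adjusted p = 0.658, 95% interval -0.21 to 0.84). Leaving out EA replicate 3 gave 0.13, WT replicate 3 0.15, and WT replicates 2 and 4 together 0.59.

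GstE12 had 1722, 1572, 2877 and 2320 in EA and 1717, 1988, 1805 and 2374 in WT. The groups overlapped, with EA replicate 3 above and EA replicate 2 below every WT library. The log2 fold change was 0.08 ± 0.19 (limma adjusted p = 0.928, 95% interval -0.35 to 0.50).

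The delta cluster gave small differences in either direction. The 11 delta genes lie together on chromosome 3R, from 12364776 to 12385624 (20.8 kb; coordinates in this paragraph and the next are those of assembly BDGP6.54, which differs from the builds dm3 and BDGP5 named for the counting). Of 7 tested, 4 were higher and 3 lower in EA, with log2 fold changes from -0.57 for GstD10 to 0.31 for GstD1. GstD10 was at -0.92 without EA replicate 1, -0.36 without EA replicate 2 and -0.31 without WT replicate 4. GstD10 had 8.79 to 29.8 in EA and 15.8 to 36.7 in WT, and its high EA value came from replicate 1 alone. Beside GstD1, the neighbour GstD9 had 134 to 151 in EA and 101 to 158 in WT, a log2 fold change of 0.17 ± 0.14. GstD2 (24.6 to 55.8 in EA, 22.7 to 41.0 in WT), GstD3 (65.3 to 96.3 and 65.7 to 82.1), GstD8 (17.6 to 34.4 and 25.3 to 36.7) and GstD11 (73.3 to 92.4 and 69.5 to 108) had groups that overlapped. Their adjusted p-values were 0.897, 0.800, 0.700 and 0.815 with limma.

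Of the epsilon genes, 10 form a cluster on chromosome 2R, from 18396638 to 18409835 (13.2 kb), and GstE11, GstE12, GstE13 and GstE14 lie elsewhere on 2R. Of 12 tested, 7 were higher and 5 lower in EA, and the median difference was 0.04 on the log2 scale. Along the cluster the fold changes were -0.20 for GstE1, 0.23 for GstE2, 0.17 for GstE3, -0.15 for GstE4, 0.04 for GstE5, -0.17 for GstE6, 0.61 for GstE7 and 0.78 for GstE9. The values of GstE3, GstE5 and GstE6 changed sign under some alternatives, and ratios between neighbours are described below. GstE6 had 322 to 549 in EA and 319 to 643 in WT, GstE4 had 362 to 549 and 431 to 601, and GstE3 had 377 to 782 and 365 to 565. GstE1, which overlaps GstE10 on the opposite strand by 20 bases, had 250 to 534 and 305 to 463. GstE2 (154 to 184 in EA, 111 to 166 in WT) and GstE5 (73.0 to 121 and 66.9 to 114) also overlapped between groups.

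**Figure D4:**
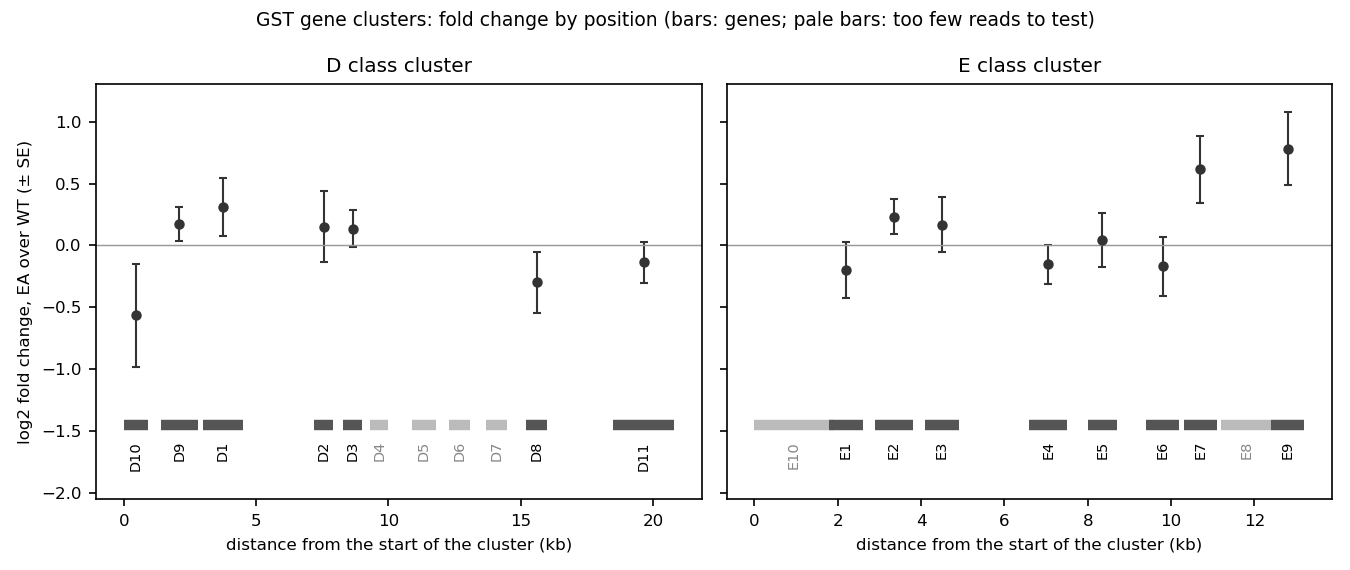
Log2 fold change of EA over WT (± SE, 4 libraries per group) against distance from the start of the delta and the epsilon cluster, in kb, with genes drawn as bars and untested genes in pale grey. In the delta cluster the values lie between -0.57 and 0.31, and in the epsilon cluster GstE7 and GstE9 lie highest, at 0.61 and 0.78.

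Outside the cluster, GstE14 (also called noppera-bo), known for its part in making the steroid hormone ecdysone, had one of the narrowest intervals. It had 181 to 235 in EA and 197 to 205 in WT, a difference of 0.03 ± 0.10 on the log2 scale (limma adjusted p = 0.951, 95% interval -0.20 to 0.26). GstE11 (58.9 to 102 in EA, 67.5 to 107 in WT) and GstE13 (94.1 to 137 and 82.0 to 142) had fold changes of -0.03 and -0.04, with signs that depended on the library left out. In the omega class, GstO2 had 371 to 530 in EA and 352 to 428 in WT (0.20 ± 0.13), and GstO1 had 44.7 to 81.5 and 47.5 to 78.9 (-0.07 ± 0.23).

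Neighbouring genes were compared through the log2 ratio of their levels in each library, for the 17 pairs of adjacent tested genes in the delta, epsilon, omega and GstT1 to GstT2 groups. This comparison was added after the values were seen, and it replaced a smaller set of pairs that had been picked by hand and examined first. Ratios did not overlap between EA and WT in 3 pairs, which were GstE6 with GstE7, GstO3 with se and se with GstO2. The pairs with se involve a gene outside the rule, whose own level was separate between groups. A share over ratios of other neighbouring genes is not given here. The 7.99% of single genes that were separate is a different measure. The ratio of GstE6 to GstE7 was 2.35 ± 0.35 for EA on the log2 scale and 3.13 ± 0.23 for WT (SD, n = 4). With so few libraries an exact permutation test adjusted over the 17 pairs could pass only if most pairs were separate, so the ratios are given as values with no test.

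The libraries that ranked highest and lowest within a group recurred across GST genes. EA replicate 3 was the highest EA library in 17 of the 27 tested GSTs, against 35.9% of all tested genes, while EA replicates 2 and 1 were the lowest in 14 and 11 of 27, against 25.6% and 25.8%. In WT, replicate 4 was highest in 15 of 27 (31.6% of all tested genes) and replicate 3 lowest in 12 of 27 (29.9%). Relative to each gene's mean over the 8 libraries, the median GST in EA replicates 1 to 4 lay at -0.18, -0.27, 0.32 and 0.16 on the log2 scale. The WT replicates lay at -0.12, 0.0034, -0.22 and 0.15. The median over all tested genes stayed between -0.0049 and 0.0078. Summed over the 33 genes, normalized counts were 7890, 7344, 12207 and 10174 in EA and 7727, 9108, 7235 and 10035 in WT. EA replicates 3 and 4 had sums above every WT library, and EA replicates 1 and 2 lay within the WT range.

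**Figure D5:**
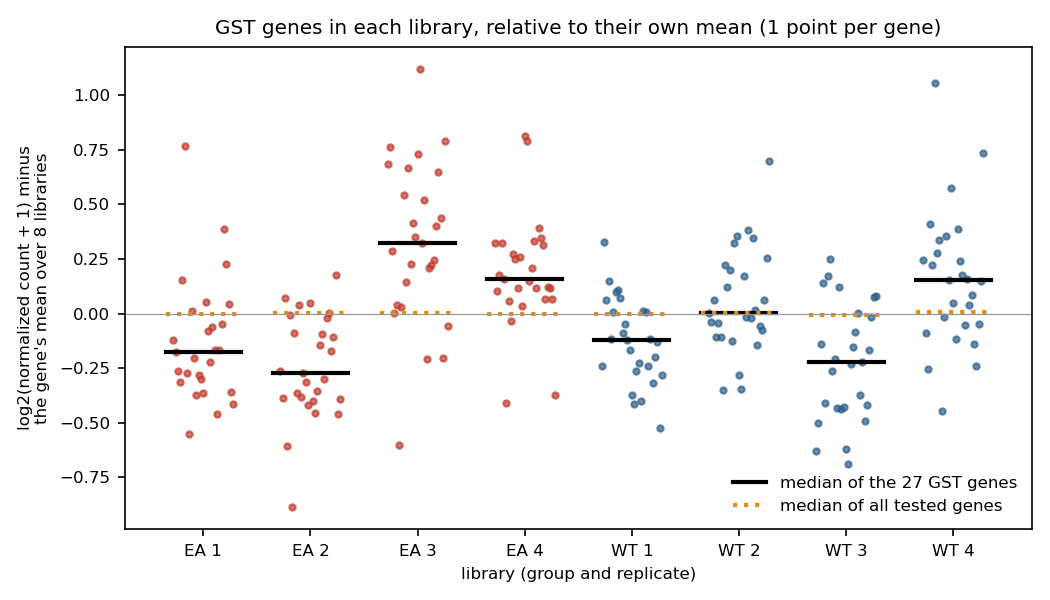
Log2(normalized count + 1) of each tested GST gene minus its own mean over the 8 libraries, by library (1 point per gene, black bar for the GST median, dotted bar for the median of all 10347 tested genes). GSTs lie high in EA replicates 3 and 4 and WT replicate 4 and low in EA replicates 1 and 2 and WT replicate 3, while the median of all genes lies near 0 in each library.

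Markers of tissues in the head were set beside this pattern. Of all 10347 tested genes, 49.3% were higher in EA, 1.21% were differentially expressed and 12.7% had an unadjusted p under 0.05. All 7 fat body genes of 7 tested were higher in EA (0 differentially expressed with limma, 4 at an unadjusted p under 0.05), Apoltp by only 0.0089 on the log2 scale. Their summed level was 110273, 57737, 113482 and 106573 in EA and 46854, 51345, 38997 and 49419 in WT. The gene apolpp gave 50807 to 101035 in EA and 32657 to 43135 in WT. Its adjusted p was 0.0569 with limma, 0.0452 with edgeR and 1.42e-05 with DESeq2, and that of Lsp2 was 0.0864 with limma and 0.0224 with DESeq2. Of 11 photoreceptor genes 10 were higher in EA, 3 (Arr1, Arr2 and inaC) were differentially expressed and 8 had an unadjusted p under 0.05. The exception in direction, trpl, had 12377 to 14315 in EA and 14830 to 16295 in WT (limma adjusted p = 0.218, and 0.0279 with DESeq2). The photoreceptor sums were 395983 to 462352 in EA and 286841 to 351607 in WT. Of these, ninaE alone gave 129024 to 158575 and 85506 to 108243. The sums of the glia list (17274 to 21737 in EA, 17767 to 20057 in WT), the neuron list (97484 to 148158 and 100417 to 124664) and the antenna list (15041 to 26568 and 22552 to 29426) overlapped. By library, the neuron sums were 148158, 141525, 97484 and 130216 in EA and 124664, 108471, 121916 and 100417 in WT. These sums were lowest in EA replicate 3 and WT replicate 4, where the median GST lay highest within its group. Of 6 neuron genes 0 were differentially expressed with limma (1 at an unadjusted p under 0.05). This was the synaptic vesicle gene Syt1, at 27080 to 52157 in EA and 17284 to 23420 in WT (0.95 ± 0.20 on the log2 scale, adjusted p = 0.0557 with limma and 6.77e-05 with DESeq2). All 7 antenna genes were lower in EA, 0 of them differentially expressed with limma (1 at an unadjusted p under 0.05). The midgut sum was highest in EA replicate 3, at 1655, of which the amylase gene Amy-d gave 1433. The midgut gene Vha100-4 was differentially expressed, with at most 2 reads in each EA library and 18 to 46 in WT (limma adjusted p = 0.0016). The part of these tissues in the GST values was not tested, and in bulk heads fewer cells of a type cannot be told apart from less RNA per cell.

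Genes that work with GSTs were described as 4 lists of 52 symbols, of which 48 had a row and 41 passed the filter for testing. In this set 0 were higher and 1 (se) lower at an adjusted p under 0.05, beside 0.657% and 0.551% of all tested genes. At an unadjusted p under 0.05 there were 7 higher and 1 lower, with 7.0% and 5.65% over all tested genes. The median log2 fold change of the 41 genes was 0.03. The groups did not overlap in 5 genes (Grx1, maf-S, se, CG31793 and Rala), against 7.99% of all tested genes.

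Of 10 tested genes for making and recycling glutathione, 0 were differentially expressed with limma, 2 at an unadjusted p under 0.05. Gclc, the catalytic subunit of the enzyme that makes the first step of glutathione synthesis, had 1103 to 1354 in EA and 1232 to 1373 in WT, which is -0.12 ± 0.08 on the log2 scale (limma adjusted p = 0.639). Its modifier subunit gene Gclm had 568 to 753 in EA and 540 to 669 in WT, which is 0.16 ± 0.11 (limma adjusted p = 0.637). The glutaredoxin gene Grx1 had 260, 258, 353 and 309 in EA and 212, 232, 186 and 244 in WT. All its EA libraries were above all WT libraries, with a log2 fold change of 0.43 ± 0.13 (SE, n = 4; limma adjusted p = 0.181). The thioredoxin gene Trx2 had 906 to 1322 in EA and 770 to 930 in WT (0.33 ± 0.12, adjusted p = 0.286).

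The regulators and enzymes of the antioxidant response gave 0 calls in 14 tested genes with limma (1 at an unadjusted p under 0.05). The activator gene cnc had 3258 to 4265 in EA and 3384 to 3706 in WT, a difference of 0.13 ± 0.10 on the log2 scale (limma adjusted p = 0.657). Keap1, whose product holds the cnc protein in check, had 286 to 369 in EA and 271 to 332 in WT (0.10 ± 0.11, adjusted p = 0.783). maf-S, the partner of cnc on DNA, had 410, 430, 492 and 449 in EA and 344, 398, 359 and 408 in WT. Its groups did not overlap, though by a narrow margin, and the log2 fold change was 0.24 ± 0.09 (adjusted p = 0.309).

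In the list for export of conjugates, 0 of 8 tested genes were differentially expressed with limma (2 at an unadjusted p under 0.05). CG31793 had 616 to 713 in EA and 532 to 564 in WT, a difference of 0.27 ± 0.07 on the log2 scale (limma adjusted p = 0.140, and 0.0379 with DESeq2). Rala, a small GTPase gene, had 700 to 771 and 617 to 655 (0.19 ± 0.07, adjusted p = 0.281).

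Of 9 tested genes in the list of other GSTs and GST-like genes outside the rule, 1 was differentially expressed. This was se, which encodes an omega-type GST that makes a precursor of the red eye pigments and lies between GstO3 and GstO2. It had 228, 273, 223 and 240 in EA and 672, 570, 707 and 618 in WT, so that the groups were far apart (log2 fold change -1.41 ± 0.10, SE, n = 4; limma adjusted p = 1.43e-04). GstO2 shares 61 bases of exon with se on the opposite strand, 3.5% of its exon length. The log2 ratio of se to GstO2 was -0.89 ± 0.29 for EA and 0.72 ± 0.28 for WT (SD, n = 4). The zeta genes, which isomerize a product of tyrosine breakdown, were higher in EA without passing the threshold. GstZ1 had 33.4 to 73.3 in EA and 26.5 to 37.4 in WT (0.72 ± 0.25, adjusted p = 0.239), and GstZ2 had 202 to 283 and 145 to 208 (0.47 ± 0.15, adjusted p = 0.219).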

How the data were processed

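The 8 head libraries (4 EA, 4 WT) were read as paired ends of 75 bp after removal of ribosomal RNA. The labels name the molecule polyA RNA although the protocol names depletion. The deposited signal was a read count per gene that the authors had divided by 1 DESeq2 size factor per library. The authors' processing notes name TopHat, featureCounts of Subread, DESeq2 and the builds dm3 and BDGP5. Versions, annotation, strand setting and treatment of reads shared by near-identical copies were not given in the sources used here. Such reads would leave levels of duplicated GST genes uncertain. The deposited log2 fold change with its SE, Wald score, p-value columns and mean signal were not used. Columns of samples outside the series numbered 0.

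Whole reads were recovered by dividing each column by its smallest step (100% of values within 0.01 of a whole number). The 10347 genes whose normalized count averaged 10 or more over the libraries were fitted with limma 3.58.1 (lmFit, eBayes with trend) on log2(normalized count + 1), with group as the only term. This understates changes of low genes. Adjusted p-values are Benjamini-Hochberg over all genes tested, two-sided, threshold 0.05, and 95% intervals come from the same fit, unadjusted. Differential expression refers to this test. The planned form for raw counts, edgeR, was an alternative because the table holds normalized values. Alternatives were edgeR 4.0.16, DESeq2 1.42.0, limma-voom, TMM and upper quartile scaling, pseudocounts of 0.5 and 5, no filter or a mean of at least 50, a replicate block, leaving out libraries, and a threshold of 0.01. Tests were checked on simulated counts. Symbols matched 14023 of 14622 identifiers (95.9%). Exon lengths and positions came from Ensembl release 115, assembly BDGP6.54. Protein and promoter sequences were not used here.

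Values in every library were given for GSTs with an unadjusted p under 0.05 and the member with the highest level per kb of each class, where GstS1, GstO3 and GstT4 are both. Pathway genes were named at an unadjusted p under 0.05, Adar and w as checks of the labels. Gclc, Gclm, cnc, Keap1 and the ratios of neighbours were chosen after values were seen. The members, lists and tests were chosen with earlier results of these data known.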

Additional observations from a re-analysis of the deposited data

Results flagged for a closer look

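In 86 groups of 4 libraries, from 43 genes, Dixon's test at the 95% level asked whether the top or bottom library stood apart, which chance gives in about 1 of 20 groups. This held in 2 groups. GstT4 was at 386 in EA replicate 3, with the other EA libraries between 301 and 310. GstD7 was at 1.15 in EA replicate 1, from 1 read, with 0 in the other EA libraries.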

How the results depend on the processing

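Over 19 alternatives, in addition to a threshold of 0.01, the count of differentially expressed GSTs was 0 each time, and the smallest adjusted p of a GST was 0.0518, for GstE9 with DESeq2. The sign of the fold change was the same under every alternative for 17 of 27 GSTs. The median log2 fold change of tested GSTs was 0.22 without WT replicates 2 and 4 together, and ran from -0.03 to 0.15 when single libraries were left out. The cause was not tested. Pathway genes gave 2 calls with DESeq2 (se and CG31793) in place of 1. Fold changes that turned sign without WT replicates 2 and 4 were 0.21 for GstE6, 0.23 for GstE11, 0.22 for GstE13 and 0.15 for GstO1. With limma-voom they were 0.0016 for GstE13, 0.0023 for GstO1 and -0.0016 for GstT3. With single libraries left out, fold changes that crossed 0 ran from -0.077 to 0.31 for GstD2, -0.028 to 0.32 for GstE3, -0.097 to 0.16 for GstE5, -0.15 to 0.11 for GstE11, -0.084 to 0.21 for GstE12, -0.18 to 0.084 for GstE13, -0.033 to 0.092 for GstE14, -0.21 to 0.070 for GstO1 and -0.24 to 0.18 for GstT3. Same-numbered libraries correlated at 0.19, -0.19, -0.23 and -0.12 in their deviations from the group means. EA and WT libraries of different numbers correlated at -0.27 to 0.19, so these values gave no sign of pairing by number. Whether libraries of the same number shared a collection cannot be told from them. With the replicate number as a block the count of GSTs was 0 (4 at an unadjusted p under 0.05), that of pathway genes 1 and the GST median 0.07. Changes of GSTs at a few reads (GstD4 to GstD7, GstE10), unless large, are beyond this depth.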
